A study of Rattus norvegicus with 4 samples.

Results

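The mitochondrial ribosomal protein genes are the nuclear genes whose symbols begin with Mrps (named for the small subunit of the mitochondrial ribosome) or Mrpl (named for the large subunit), followed by a number. This symbol rule found 76 of the 22714 genes listed, with 73 different symbols, 29 of them Mrps and 44 Mrpl. It also found 40 of the 8192 m6A peaks listed for control neurons and 38 of the 8183 listed for exposed neurons.

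The RNA came from primary hippocampal neurons of Rattus norvegicus, which had been given the mitotic inhibitor Ara-C on day 7 in vitro in every group. Each of the 4 groups is 1 library. Ctrl_Input and BPA_Input hold total RNA from untreated neurons and from neurons kept for 48 h in 1 mM bisphenol A (BPA), a building block of polycarbonate plastics that can act on oestrogen receptors. Ctrl_IP and BPA_IP hold RNA pulled down with an antibody against N6-methyladenosine (m6A, a methylated base within mRNA). Exposure began on day 12; the labels end it on day 14 for the precipitated sample and on day 13 for the input. They give no strain or genotype and do not say whether an input and its IP share a culture. With no replicate, each difference below is one between a pair of libraries and carries no test of the exposure. Its 95% interval is exact (Clopper-Pearson) and covers read counting only.

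Mitochondria keep a small genome of their own, and its mRNAs, which encode core subunits of the respiratory chain, are translated inside the organelle by a dedicated ribosome. The RNA of that ribosome is made in the mitochondrion, whereas all of its proteins are encoded in the nucleus, made in the cytosol and imported. Neurons rely heavily on oxidative phosphorylation, so the supply of these proteins is part of how they keep up respiration. Part of the family descends from bacterial ribosomal proteins, and the rest has no bacterial counterpart.

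The input libraries summed to 9837064 (Ctrl) and 9774929 (BPA) deposited counts, and 13006 genes had a mean of at least 10 counts. All 8 neuronal marker genes were found, at 27.3 to 269 FPKM in Ctrl and 33.4 to 317 FPKM in BPA, with a summed level of 1208 and 1313 FPKM. The 6 astrocyte markers were found too, and their summed level of 6694 and 6168 FPKM was above that of the neuronal markers in both libraries. Of the astrocyte markers 5 of 6 had a lower count in BPA, with a median log2 ratio of -0.10, while 5 of 8 neuronal markers had a higher count, with a median of 0.12. Over all 13006 genes 50.4% had a higher count in BPA. Summed levels of the other lists were 105 FPKM in each library for the oligodendrocyte lineage, 31.7 and 33.8 FPKM for microglia and 7.30 and 6.82 FPKM for endothelial and mural cells. Mog, which marks mature oligodendrocytes, was listed at 0 in Ctrl and at 0.271 FPKM in BPA, and Cldn5, which marks endothelium, at 0 in both. Fewer cells of a type and less RNA per cell cannot be told apart in such libraries, and the part of cell composition in the values below was not tested.

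Of the 76 rows, 70 had a mean of at least 10 counts, 28 of the small and 42 of the large subunit, and are the members measured below. Per unit of length they were moderately abundant. Their median level was 25.1 FPKM in Ctrl (quartiles 14.7 and 36.2) and 24.7 FPKM in BPA (quartiles 14.9 and 36.5), against medians of 13.4 and 13.5 FPKM over all 13006 genes. The small subunit had medians of 27.0 and 24.7 FPKM, and the large subunit 24.0 and 24.6 FPKM. Cytosolic ribosomal proteins, the counterparts on the main ribosome of the cell, had medians of 196 and 198 FPKM over 94 rows. Of the 70 members, 60 had an FPKM between 10 and 60 in both libraries.

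**Figure D1:**
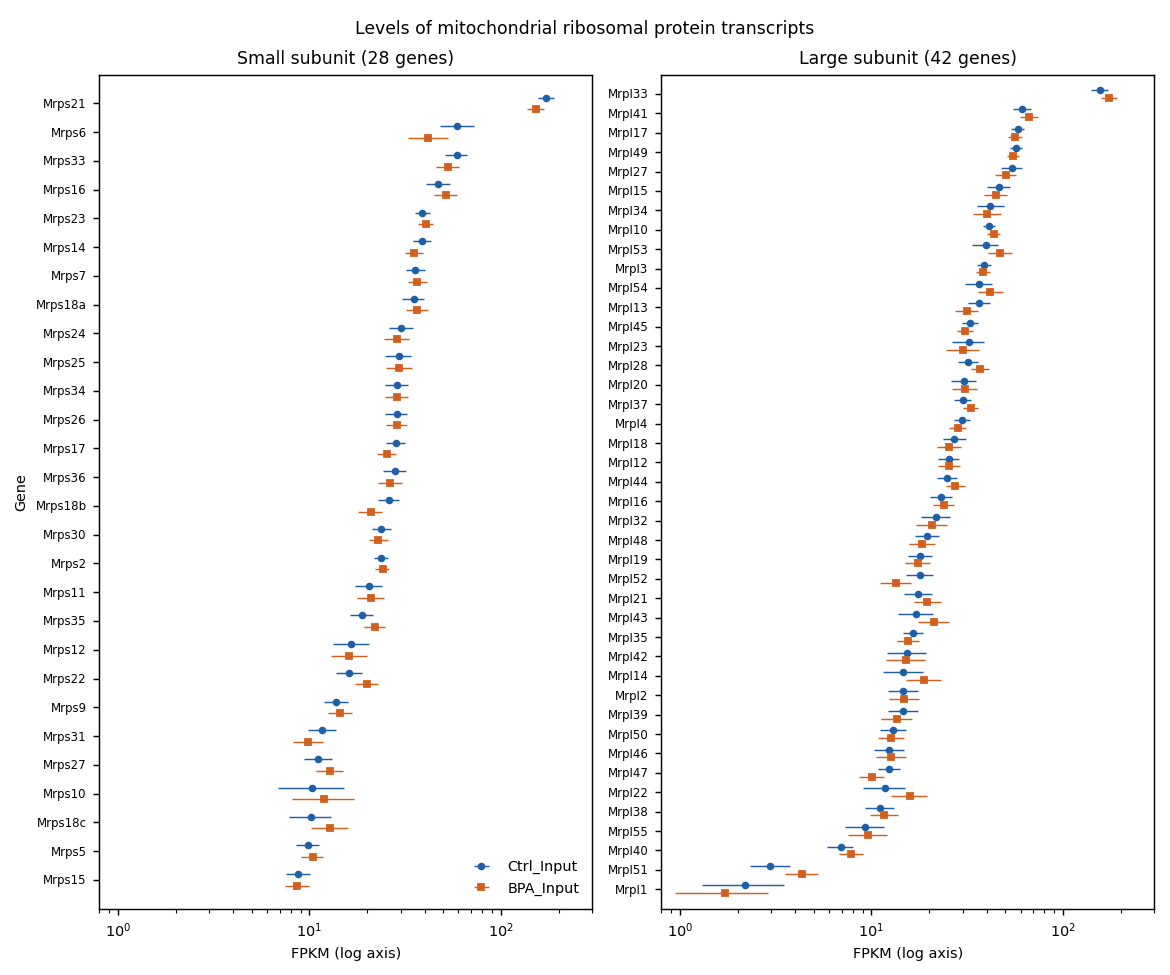
FPKM (log axis) of each of the 70 measured members in Ctrl_Input (circles) and BPA_Input (squares), ordered by the Ctrl level within each subunit, with 95% counting intervals. Mrps21 and Mrpl33 stand above 150 FPKM in both libraries, and Mrpl1 and Mrpl51 below 5 FPKM.

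The plot of FPKM by gene shows a steady gradient with a few genes apart at either end. Mrps21, a small-subunit protein with a bacterial counterpart, was the highest in Ctrl at 171 FPKM and stood at 152 FPKM in BPA. Mrpl33, a short large-subunit protein, stood at 156 and 174 FPKM, so that this pair exchanged the first place, with overlapping counting intervals in each library. Mrpl41, a large-subunit protein without a bacterial counterpart, followed at 61.3 and 66.3 FPKM. Below these, down to Mrpl40, the levels lay close together, and counting intervals of neighbours in the order overlapped. The interval of Mrpl51, next below Mrpl40, lay apart from that of Mrpl40 in both libraries. Mrpl17, a large-subunit protein with a bacterial counterpart, had 57.9 and 56.3 FPKM, and Mrpl49, one without, had 56.9 and 54.9 FPKM. The 10 highest members in Ctrl and the 10 highest in BPA had 9 genes in common.

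At the lower end, Mrpl1, whose bacterial counterpart forms the mobile stalk beside the exit site for tRNA, had 2.20 FPKM in Ctrl and 1.73 FPKM in BPA, from 18.2 and 14.3 counts. Mrpl51, a large-subunit protein without a bacterial counterpart, had 2.96 and 4.33 FPKM. These were the lowest and next lowest measured members in both libraries, and they were the only measured members under 5 FPKM. Mrpl40 had 6.89 and 7.86 FPKM, Mrps15 had 8.69 and 8.66 FPKM and Mrpl55 had 9.25 and 9.61 FPKM. Mrps15 is a small-subunit protein with a bacterial counterpart, and Mrpl40 and Mrpl55 are large-subunit proteins without one.

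The remaining 6 rows were at or near 0. Mrps28, a small-subunit protein, had 2.02 counts in Ctrl and 11.2 in BPA. Both rows of Mrpl36, a very small large-subunit protein, were listed at 0 in both libraries, as was the chromosome 9 row of Mrps36, whose chromosome 2 row had 215 and 203 counts. Mrpl30 had a pair of rows at the same chromosome 9 locus, with 1.01 and 2.04 counts in one and 0 and 1.02 in the other. A count of 0 leaves room for a level of about 3 reads, a rounded floor and not the exact interval used elsewhere. How reads were divided between near-identical copies is not given in the sources used here, so the levels of these 3 symbols with several rows are uncertain. A further 6 entries are described as mitochondrial ribosomal proteins but fall outside the symbol rule. Among them, mrpl11 had 194 and 178 counts, mrpl9 had 400 and 420, and mrpl24 had 186 and 230 counts, a ratio of 1.24 (interval 1.01 to 1.51). The Mrpl1-like entry LOC100359687 had 24.2 and 13.3 counts, and 2 more were at 0 in both libraries.

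Between the input libraries the summed count of the family differed by less than its counting interval. Summed over the 70 members, the deposited counts were 16374 in Ctrl and 16504 in BPA, 0.166% and 0.169% of the libraries, a ratio of 1.01 (interval 0.986 to 1.03). The median log2 ratio of BPA over Ctrl was 0.0077, against 0.0019 over all genes, and ranged over the members from -0.48 to 0.54. No member passed 2-fold, where 2.02% of all genes tested did. A higher count in BPA was found for 38 members and a lower one for 32, and 50.4% of all genes were higher.

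The log2 ratios of the members were also less spread than those of other genes, a description for which no test was run. Of the 70, 58 had a log2 ratio within 0.25 of 0 and 40 within 0.1, and 77.4% of all genes were within 0.25. The central 68% of the members spanned 0.15 on either side on the log2 scale. Restricted to genes with a mean of 50 to 800 counts, where 68 of the members lie, that half-span was 0.14 for the members and 0.19 for all 8025 genes. Over all their measured rows, cytosolic ribosomal proteins had a half-span of 0.14. The list of 8 mitoribosome proteins under other symbols, which leaves out mrpl9, mrpl11, mrpl24 and LOC100359687, had 0.05. The counting interval of the ratio lay above 1 for 2 members (9.19% of all genes) and below 1 for 4 (9.13% of all genes). Together that is 6 of 70, where 18.3% of all genes tested and 15.4% of genes with a mean of 50 to 800 counts had such an interval, 7.78% above 1 and 7.6% below. The members' share was below this background, and the 6 genes are given below only as the widest differences within the family.

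The subunits gave the same picture. Small-subunit symbols summed to 6361 counts in Ctrl and 6351 in BPA, a ratio of 0.998 (interval 0.964 to 1.03), with 17 of 28 higher and a median log2 ratio of 0.02. Large-subunit symbols summed to 10013 and 10152 counts, a ratio of 1.01 (interval 0.986 to 1.04), with 21 higher, 21 lower and a median of 0.00. Names and places differ for a few: in mammalian mitochondrial ribosomes the proteins of Mrps18a and Mrps30 sit in the large subunit, and Mrps36 encodes a component of the 2-oxoglutarate dehydrogenase complex. With Mrps18a and Mrps30 moved and Mrps36 left out, the medians were 0.02 over 25 and 0.00 over 44 genes.

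The members can also be sorted by origin. The 41 measured members with a bacterial counterpart had a median level of 27.1 FPKM in Ctrl and 25.4 FPKM in BPA, with a median log2 ratio of -0.0048 and 20 higher. The 28 without one had 19.2 and 21.5 FPKM, a median log2 ratio of 0.04 and 18 higher. Their summed counts were 9945 and 9889, a ratio of 0.994 (interval 0.967 to 1.02), for the first class, and 6213 and 6411, a ratio of 1.03 (interval 0.996 to 1.07), for the second.

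**Figure D2:**
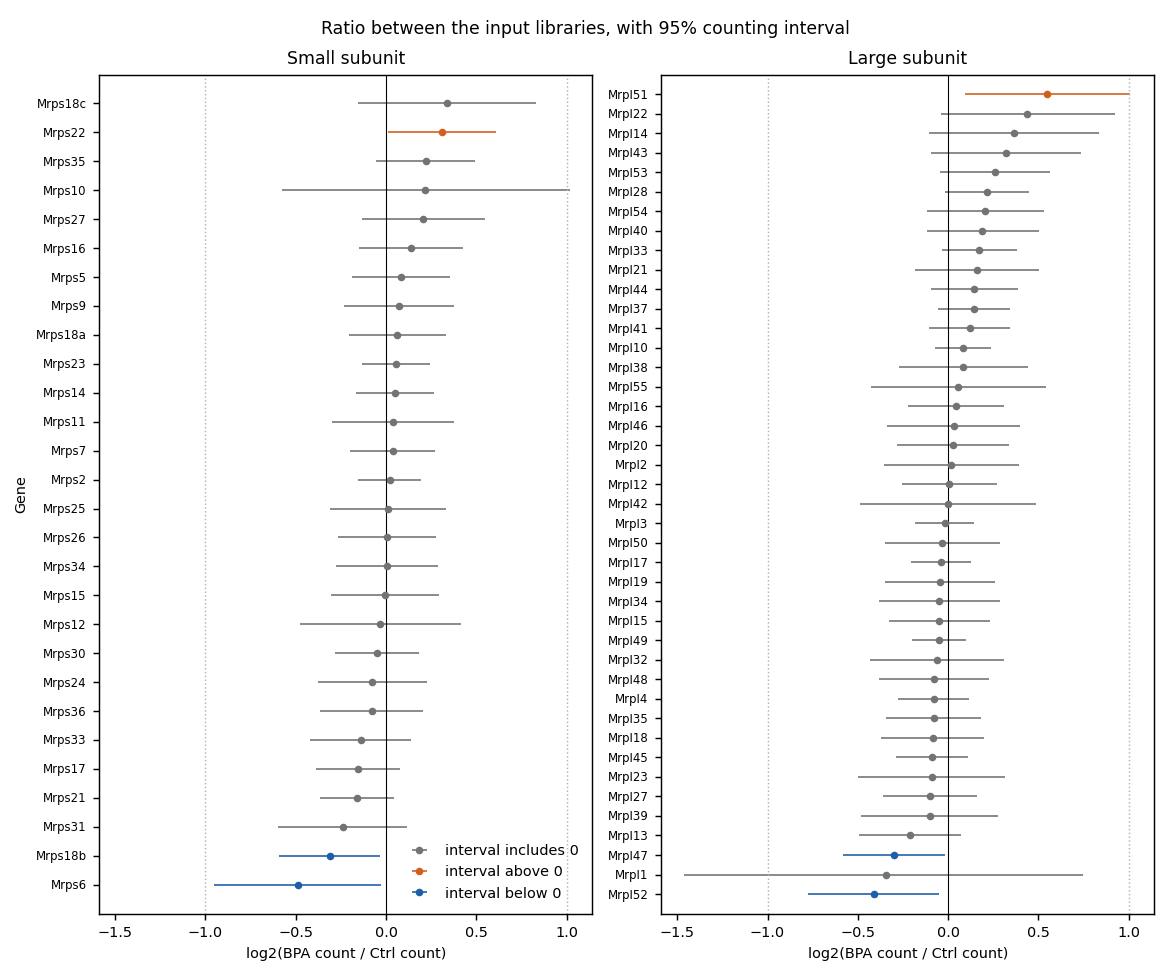
Log2 ratio of the BPA count over the Ctrl count for each of the 70 measured members, by subunit, with 95% counting intervals; dotted lines mark 2-fold. Intervals lie above 0 for Mrpl51 and Mrps22 and below 0 for Mrps6, Mrps18b, Mrpl47 and Mrpl52.

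The plot of log2 ratios shows most intervals across 0. Mrpl51 had 70.9 counts in Ctrl and 104 in BPA, a log2 ratio of 0.54 and a fold of 1.46 (interval 1.07 to 2.01). It was the highest ratio in the family, at a member low in FPKM, and its deposited counts were not whole multiples of a read, so that its interval rests on rounded values. Mrps22, a small-subunit protein without a bacterial counterpart, had 173 and 214 counts, a fold of 1.24 (interval 1.01 to 1.52). For Mrpl22, whose bacterial counterpart lines the tunnel through which the new protein leaves, the counts were 65.6 and 88.9, a fold of 1.36 (interval 0.972 to 1.90). The other 5 of the 8 highest were Mrpl14, Mrps18c, Mrpl43, Mrpl53 and Mrps35, at log2 ratios of 0.36, 0.33, 0.32, 0.26 and 0.22, and their intervals included 1. The loci of Mrpl14 and Mrps35 overlap other listed genes, 10 and 3 of them, with some on the same strand, so their reads are less certain.

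At the other end, Mrps6, a small-subunit protein with a bacterial counterpart, had 98.9 counts in Ctrl and 70.5 in BPA, a log2 ratio of -0.48 and a fold of 0.713 (interval 0.516 to 0.980). By FPKM it ranked 4 among the members in Ctrl, at 59.2 FPKM, and 13 in BPA, at 41.8 FPKM. Mrpl52, a large-subunit protein without a bacterial counterpart, had 152 and 114 counts, a fold of 0.751 (interval 0.583 to 0.965). Mrps18b, one of the paralogues of bacterial S18, had 241 and 194 counts, a fold of 0.805 (interval 0.662 to 0.978). Of its paralogues, Mrps18a had 230 and 240 counts and Mrps18c 65.6 and 82.8, with folds of 1.04 (interval 0.866 to 1.26) and 1.26 (interval 0.899 to 1.78) that included 1. Mrpl47, at the mouth of the exit tunnel, had 235 and 191 counts, a fold of 0.813 (interval 0.667 to 0.989), and its locus overlaps 1 listed gene on the opposite strand. The remaining 4 of the 8 lowest, Mrps31, Mrpl13, Mrps21 and Mrps17, had log2 ratios of -0.24, -0.21, -0.16 and -0.16, with intervals that included 1. Mrps14 was the only measured member whose count and FPKM differed in direction, with 357 and 370 counts against 38.7 and 35.3 FPKM.

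Of the 53 measured genes in 4 lists, of mitochondrial translation, ribosome assembly and mitochondrial DNA expression, 39 (73.6%) had a log2 ratio within 0.25 of 0. Over all genes it was 77.4%. The list of 8 mitoribosome proteins under other symbols had 5 higher, a median log2 ratio of 0.01 and no interval that left out 1. It does not hold mrpl9, mrpl11, mrpl24 or LOC100359687, given above, of which mrpl24 had an interval above 1 (1.01 to 1.51). Among the 8, the largest ratio in size was that of Mrp63, with 203 counts in Ctrl and 177 in BPA. Next came Gadd45gip1, with 125 and 136. Oxa1l, which inserts new proteins into the inner membrane, had 632 counts in each library.

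Translation factors had 7 of 13 higher and a median of 0.09. Rmnd1, which is needed for mitochondrial translation, had 218 and 290 counts, a fold of 1.33 (interval 1.11 to 1.60). Gfm2, the elongation factor G paralogue that recycles ribosomes, had 250 and 206 counts, a fold of 0.823 (interval 0.682 to 0.997). Those were the only intervals of the 13 that left out 1, as did the intervals of 18.3% of all genes tested. The initiation factor Mtif3 had 96.9 and 119 counts, and the release factor family member Mtrf1 had 164 and 198.

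Assembly and rRNA modification genes, of which 22 of 28 were found and 21 measured, had 10 higher, 11 lower and a median of -0.0035. Mtg2, a GTPase of large-subunit assembly, had 167 and 213 counts, a fold of 1.28 (interval 1.04 to 1.58), and Mtg1, another GTPase of large-subunit assembly, had 144 and 114 counts, with an interval that included 1. Tfb1m, which methylates the small-subunit rRNA, had 116 and 92.0 counts, and Fastkd2, an RNA-binding protein of ribosome assembly, had 134 and 109. Metap1d, which this list also holds, is a mitochondrial methionine aminopeptidase. It was the only measured gene of these lists past 2-fold, at 22.2 and 47.0 counts, a fold of 2.12 (interval 1.25 to 3.70). It is named after its values were seen. Mtg2 and Metap1d were the only 2 of the 21 whose interval left out 1, against 18.3% of all genes tested.

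Genes of mitochondrial DNA expression had 6 of 11 higher and a median of 0.04. Ppargc1a, a coactivator of mitochondrial biogenesis, had 495 and 426 counts, a fold of 0.862 (interval 0.754 to 0.984). No other interval of the 11 left out 1, against 18.3% of all genes tested. Tefm, the transcription elongation factor, had 102 and 78.7 counts, Tfb2m, the initiation factor, 174 and 204, and Polrmt, the RNA polymerase, 182 and 155, all with intervals that included 1. The messages this ribosome translates are the mRNAs of the mitochondrial genome, of which 11 of the 13 looked for were found. Counts were lower in BPA for 9 of the 11, with a median log2 ratio of -0.15. Intervals lay below 1 for those 9, as for 16.9% of genes whose mean reached 1000 counts, where small differences leave the interval. The interval of Mt-co1 lay above 1 (1.004 to 1.016), and that of Mt-co3 included 1. The summed count of the 11 was 372398 in Ctrl and 362446 in BPA, a ratio of 0.973 (interval 0.969 to 0.978). Mt-co1 alone made up 56.4% of the Ctrl sum, at 209932 and 212035 counts, and without it the ratio was 0.926 (interval 0.919 to 0.932).

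Many members share a start region with another gene. Of the 70, 18 (25.7%) had the start of a gene on the opposite strand within 1000 bp upstream of their own, in a head-to-head arrangement, as did 8.64% of all genes tested. One such pair is within the family: the starts of Mrps11 (chromosome 1, plus strand) and Mrpl46 (minus strand) lie 234 bp apart. Mrps11 had 150 counts in Ctrl and 154 in BPA, and Mrpl46 had 126 and 129, with log2 ratios of 0.04 and 0.03.

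**Figure D3:**
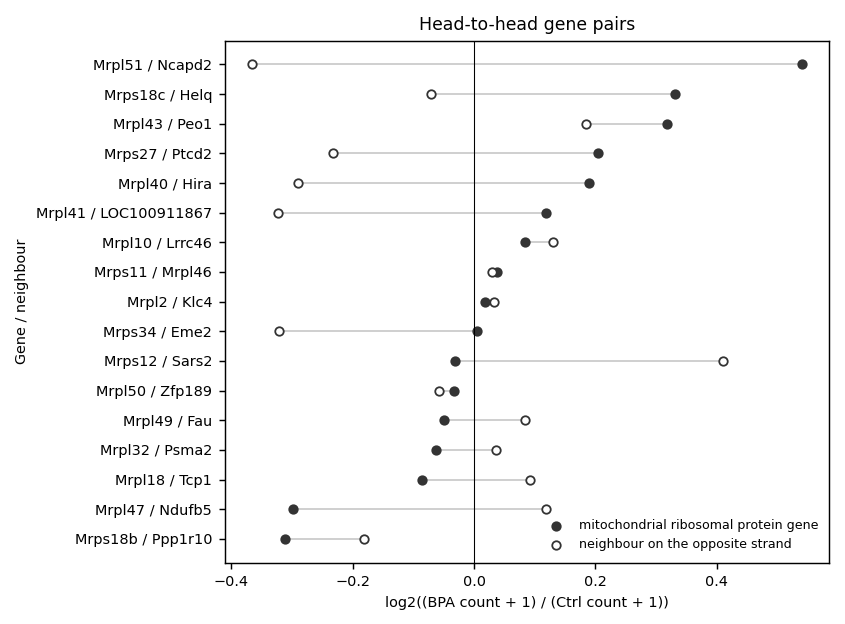
Log2 ratio, with 1 added to each count, of members in a head-to-head arrangement (filled) and of the neighbour on the opposite strand (open), 1 line per pair, with no error drawn. Mrpl51 and Ncapd2 lie farthest apart, at 0.54 and -0.37, and Mrps11 and Mrpl46 nearly coincide.

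In the plot of head-to-head pairs the log2 ratios had opposite signs in 11 of 17 pairs, and 54.7% of all such pairs of measured genes did; most of these ratios were small. Mrpl51 starts 50 bp from Ncapd2, which encodes a condensin subunit. While Mrpl51 was at 70.9 and 104 counts, Ncapd2 was at 181 and 140, a fold of 0.775 (interval 0.616 to 0.974), so the intervals of these neighbours lay on opposite sides of 1. Mrpl47 starts 265 bp from Ndufb5, a subunit of respiratory complex I, which had 502 and 545 counts and an interval that included 1. Mrpl43 starts 128 bp from Peo1, the mitochondrial DNA helicase, at 281 and 319 counts, and both had positive log2 ratios (0.32 and 0.18). Mrpl49 starts 186 bp from Fau, which encodes a cytosolic ribosomal protein fused to a ubiquitin-like one, and Fau had 624 and 661 counts. These pairs were chosen after their values were seen.

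The start regions themselves were compared by sequence. RefSeq (build GRCr8) gave a window from 250 bases before to 50 bases after the start for 59 of the 73 symbols. Motif letters were searched on both strands, and none of the 6 motifs contains another. CCGGAA, the core that ETS factors bind, occurred in 31 of 59 windows (52.5%, Wilson interval 40.0% to 64.7%), against 27.4% of the 9969 windows of measured genes and 15.0% of all 33469 windows. AAGATGG, a core of sites for the factor YY1, occurred in 16 (27.1%, interval 17.4% to 39.6%), against 8.25% and 7.01%. Either was present in 38 windows (64.4%, against 33.1% of measured genes), and both in 9. GCGCATG, part of the site of the factor Nrf1, was in 10.2%, against 6.97% of measured genes. GGGCGG, a core bound by Sp1, was in 50.8% against 63.2%, CCAAT was in 42.4% against 37.4%, and TATAAA was in 11.9% against 6.34%. The G and C content of the windows was 55.9% for members and 61.1% for measured genes. These are counts of letters and not of bound sites.

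A few windows show the letters in place, 5′ to 3′ in the direction of the gene, in lower case with AAGATGG and CCGGAA (as TTCCGG where it lies on the other strand) in capitals. Mrpl46 (chr1:142116981-142117280, minus strand) is shown for the start region it shares with Mrps11, whose window overlaps its first 267 bases. The marked AAGATGG begins at base 275, beyond that overlap, and the Mrps11 window holds neither AAGATGG nor CCGGAA. Mrpl49 (chr1:212779278-212779577, minus strand) holds AAGATGG at 2 places, of which the latter lies just past the annotated start. Mrpl52 (chr15:31852686-31852985, plus strand), among the lowest ratios above, holds AAGATGG at base 158 and TTCCGG at 2 places after it.
Mrpl46: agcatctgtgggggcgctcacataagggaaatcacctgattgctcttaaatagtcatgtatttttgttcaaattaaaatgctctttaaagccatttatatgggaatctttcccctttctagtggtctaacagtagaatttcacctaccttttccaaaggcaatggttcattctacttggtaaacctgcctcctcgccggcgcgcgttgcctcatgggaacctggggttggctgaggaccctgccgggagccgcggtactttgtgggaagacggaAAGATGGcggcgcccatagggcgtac
Mrpl49: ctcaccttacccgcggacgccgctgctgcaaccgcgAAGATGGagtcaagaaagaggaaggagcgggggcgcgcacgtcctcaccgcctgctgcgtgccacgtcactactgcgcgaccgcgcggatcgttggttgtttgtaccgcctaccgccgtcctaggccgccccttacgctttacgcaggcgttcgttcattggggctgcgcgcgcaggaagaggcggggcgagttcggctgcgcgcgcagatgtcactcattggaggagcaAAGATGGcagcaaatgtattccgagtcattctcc
Mrpl52: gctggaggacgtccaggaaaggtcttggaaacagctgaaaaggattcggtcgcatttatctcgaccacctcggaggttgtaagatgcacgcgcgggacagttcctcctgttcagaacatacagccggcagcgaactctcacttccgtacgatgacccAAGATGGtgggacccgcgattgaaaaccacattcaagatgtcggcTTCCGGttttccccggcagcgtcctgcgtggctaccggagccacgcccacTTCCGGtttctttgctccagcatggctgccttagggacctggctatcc

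m6A peaks were listed for 27 of the 73 symbols in Ctrl and for 24 in BPA. Both lists named 20 genes, 7 were named in Ctrl only, 4 in BPA only and 42 in neither. Of the 70 measured members, 26 had a peak in Ctrl (37.1%, Wilson interval 26.8% to 48.9%), where 29.1% of all genes tested did, and 23 in BPA (32.9%, interval 23.0% to 44.5%), where 29.5% did. A peak in both lists was found for 19 (27.1%), and for 24.3% of all genes tested. Of the measured members 7 had one in Ctrl only (4.8% of all genes tested) and 4 in BPA only (5.2%). Among genes at 5 to 200 FPKM in both inputs the shares were 36.8% and 33.8% for members and 35% and 35.5% for all, so that members carried listed peaks about as often as other genes at such levels.

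The genes named only in Ctrl were Mrps6, Mrps27, Mrps35, Mrpl1, Mrpl16, Mrpl23 and Mrpl27, and those named only in BPA were Mrps11, Mrpl20, Mrpl32 and Mrpl48. Some assignments are uncertain, since 9 Ctrl and 6 BPA peaks of the family overlap the locus of another listed gene. Among genes named only in Ctrl these are the peaks of Mrpl27 (11 other genes), Mrps35 (3) and Mrpl1, whose peak lies outside its own row. All such peaks were kept in the counts given here. Of measured members with a bacterial counterpart 18 of 41 had a peak in either list, and 11 of 28 without one; over all measured members it was 42.9%, and over all genes tested 34.3%. Members with a peak had median levels of 19.2 and 20.3 FPKM and a median log2 ratio of 0.00 over 30 genes. Those without had 28.3 and 27.8 FPKM and a median log2 ratio of 0.01 over 40.

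**Figure D4:**
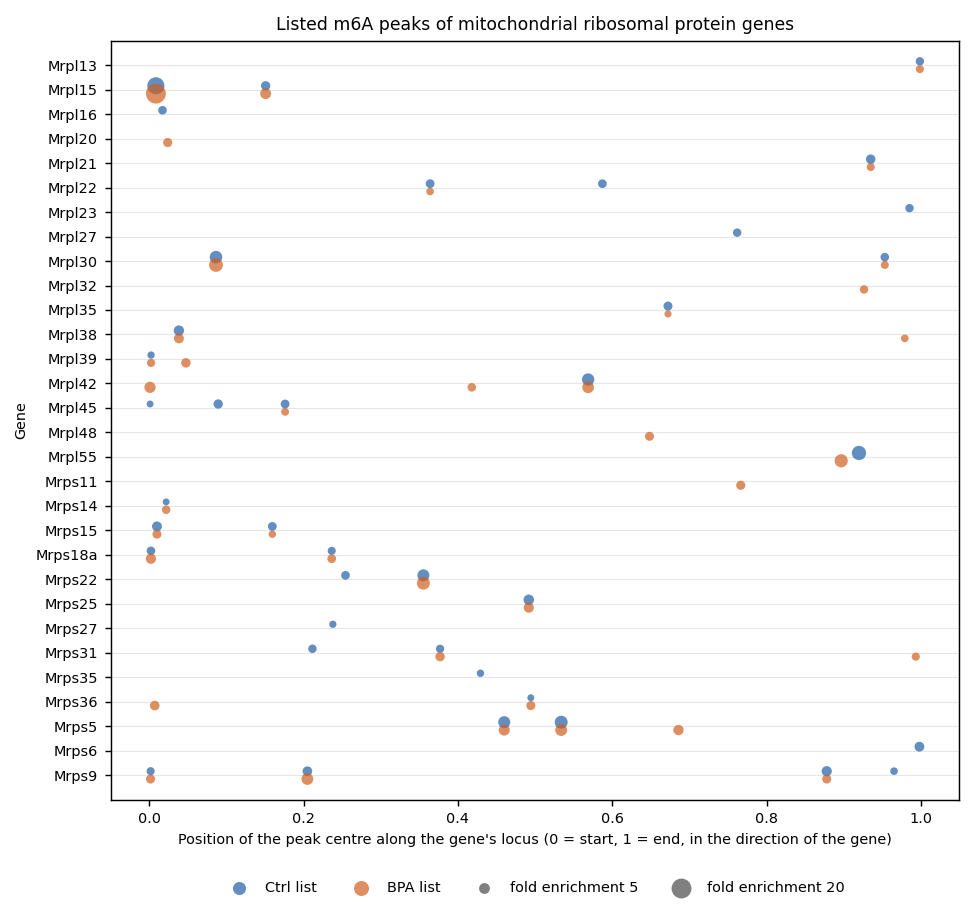
Position of each listed m6A peak's centre along the deposited locus of its gene, from start (0) to end (1). The Ctrl list is blue and the BPA list orange, and the area of a point is in proportion to the authors' fold enrichment. The strongest, in Mrpl15, lies at the start in both lists, and the Ctrl peak assigned to Mrpl1 is not drawn because it lies outside that gene's row.

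The authors' score, which grows as the peak caller's p-value shrinks, and their fold enrichment in the IP over the input were lower for peaks of these genes than for listed peaks in general. The median fold enrichment was 4.69 in Ctrl and 5.13 in BPA, against 5.92 and 6.28 over all peaks, and the median score 20.6 and 13.8 against 35.6 and 40.0. A score of at least 100 was reached by 20% and 26.3% of them, and by 31.7% and 33.3% of all peaks. The map of peak positions shows peaks along the whole locus. Within 200 bp of the start lay 9 Ctrl and 10 BPA peaks, 23.1% and 26.3% of those placed, against 18.2% and 18.7% of all placed peaks. Within 200 bp of the end lay 4 and 5 peaks, 10.3% and 13.2%, against 4.51% and 4.66%. The shares at start and end were not matched for locus length, and 200 bp takes up more of a short locus. Positions are along the genomic locus, introns included, so exon and UTR cannot be read from them. Some deposited loci also span other listed genes, so that a place along them need not be one in the gene. That of Mrpl27 covers 415842 bp and overlaps 11 other genes, and that of Mrpl30 covers 88946 bp and overlaps 2.

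Of the 40 Ctrl peaks, 27 shared at least 1 bp with a BPA peak (67.5%, Wilson interval 52.0% to 79.9%), where 73.3% of all Ctrl peaks did. From the BPA side it was 27 of 38 (71.1%, interval 55.2% to 83.0%), where 73.4% of all BPA peaks did. Peaks with a score of at least 100 overlapped a listed peak of any score in 8 of 8 and 9 of 10 cases, against 94.5% and 93.6% of all such peaks. Of the 13 Ctrl peaks without a match 10 had a score under 20, as did 9 of the 11 in BPA. Low scores went with less overlap in the whole lists too: with a score of at least 20, 88.6% of all Ctrl and 86.8% of all BPA peaks overlapped. In 25 of the 27 matched pairs the edges were the same to the base.

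**Figure D5:**
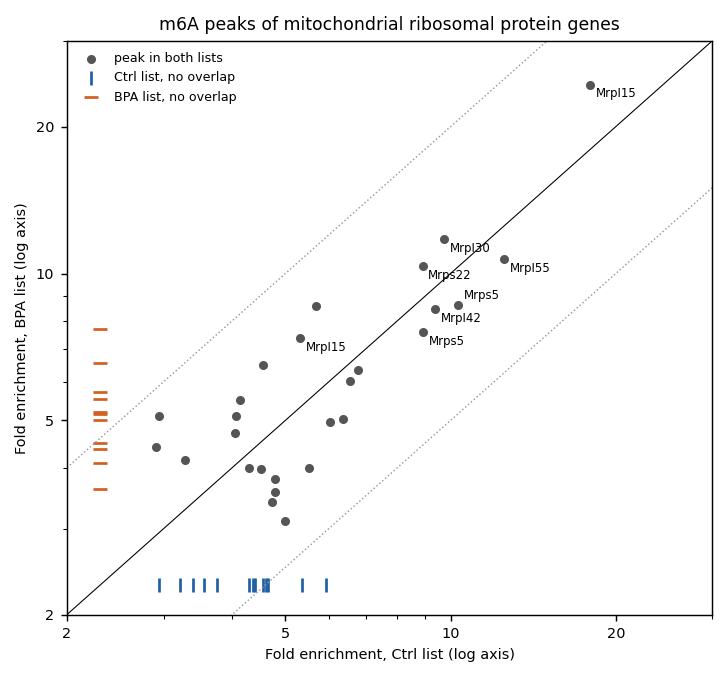
The authors' fold enrichment in the IP over the input, in the Ctrl list and the BPA list (log axes) for 27 overlapping peaks (grey), with unmatched peaks as ticks along the axes; the solid line marks equality and dotted lines 2-fold. All 27 lie within 2-fold, as did 98.2% of all overlapping Ctrl peaks, and names mark those with a Ctrl score of at least 100.

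In the plot of fold enrichment all 27 pairs lay within 2-fold, as did 98.2% of all overlapping Ctrl peaks. Of the 27, 12 were higher in BPA and 15 lower. The BPA over Ctrl ratio of fold enrichment ran from 0.622 to 1.73 with a median of 0.928. Over all overlapping Ctrl peaks the median was 1.06 and 59.7% were higher in BPA. Each list was called by the authors on its own library, so these ratios have no error and are given as a description.

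The strongest peak of the family was that of Mrpl15, whose bacterial counterpart is a core protein of the large subunit. It covered chr5:19392174-19392312, beginning 16 bp into the gene on the plus strand, with a fold enrichment of 17.96 in Ctrl and 24.36 in BPA and scores of 730 and 1048. Of all listed peaks 95.5% in Ctrl and 97.4% in BPA had a lower fold enrichment. A second peak of the gene, at chr5:19393621-19393775, had fold enrichments of 5.32 and 7.37. Both peaks had the same edges in both lists and the higher value in BPA, while the input count was 224 and 217.

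Mrps5, with a bacterial counterpart in the small subunit, held a pair of interior peaks with lower values in BPA. At chr3:127157643-127157876 the fold enrichment was 10.3 in Ctrl and 8.63 in BPA, and at chr3:127158921-127159046 it was 8.92 and 7.58. Another peak, at chr3:127155192-127155282, was listed in BPA only, with a fold enrichment of 6.57 and a score of 17.2. The input count was 222 and 235.

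Mrps22 had a shared interior peak at chr8:106056240-106056404 with fold enrichments of 8.89 in Ctrl and 10.35 in BPA, and a weak Ctrl peak of 4.61. Mrpl55 had one peak close to its end, at chr10:45311524-45312028 in Ctrl and with its end at 45311883 in BPA, with fold enrichments of 12.5 and 10.7. Of the 6 members whose count interval left out 1, Mrps22 alone had a peak in both lists, Mrps6 had one in Ctrl only and the other 4 had none.

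Mrpl42, a protein without a bacterial counterpart, showed the clearest unmatched peak. Its interior peak at chr7:36648718-36648881 was in both lists, with fold enrichments of 9.37 and 8.44. At the start of the gene, which lies on the minus strand, a peak of 36 bp at chr7:36661901-36661936 was listed in BPA only, with a fold enrichment of 7.69 and a score of 378. It was the only peak of the family with a score of at least 100 and no match, among 175 such peaks in the whole BPA list. The input count of Mrpl42 was 74.7 and 74.6.

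Mrps9, with a bacterial counterpart in the small subunit, had the most peaks in Ctrl, 4, and 3 in BPA, where Mrpl42 and Mrps5 also had 3. The one at chr9:49329518-49329697 had a fold enrichment of 5.69 in Ctrl and 8.58 in BPA, with scores of 42.4 and 161. Another, at chr9:49368285-49368453, went the other way, at 6.36 and 5.04, with scores of 81.6 and 8.64. The peaks of this gene thus differed in direction between the lists.

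The stronger of the 2 peaks assigned to Mrpl30 in each list, at chr9:44188862-44188942, had fold enrichments of 9.73 and 11.8, although both rows of that gene had at most 2.04 counts. The locus overlaps 2 other listed genes. The Ctrl peak assigned to Mrpl1, at chr8:55046145-55046406 with a fold enrichment of 3.76 and a score of 3.59, lies at the locus of the Mrpl1-like entry LOC100359687 and not on chromosome 14, where the row of Mrpl1 is.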

How the data were processed

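The expression values are from total RNA of untreated and BPA-exposed rat neurons, and the peaks from m6A immunoprecipitated RNA of the same labels, with 1 library in each of 4 groups taken from the sample titles. Per the labels' protocols, the library kit was directional. Tools in the submitters' processing notes are HISAT2 2.0.4, STAR and cutadapt 1.9.3. Not given in the sources used here are the quantifier, its use of strand, the peak caller's version and the build of the genome. Coordinates are those of the files, printed 1-based, except for promoters (GRCr8).

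The deposited input tables give an FPKM and an estimated count per gene, per the file headers. Most deposited counts are whole reads multiplied by 1 factor per library (1.01 in Ctrl, 1.02 in BPA): after division 70 of 72 and 71 of 73 member values above 0 were whole to within 0.01. The exceptions, in both libraries, are Mrpl51 and Mrps21, whose intervals rest on rounded values. The deposited peak lists give, per the file headers, a score (minus log10 of the p-value, times 10), a ratio called fold enrichment (IP against input) and an FDR percent, which reaches 100 and was not used. Peaks were called separately in each library.

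Log2 ratios are log2((BPA + 1)/(Ctrl + 1)) on the deposited counts, not scaled further, for the 13006 genes whose mean reached 10 counts. With 1 library per group no test was possible. Intervals of ratios are Clopper-Pearson 95% intervals of reads rounded to whole numbers. They cover read counting only, and reads were not tagged as molecules. Intervals of shares are Wilson 95% intervals, which treat the genes, windows or peaks counted as independent draws. Neither kind covers differences between cultures or libraries. Means and SDs over replicates do not exist here. Peaks matched at an overlap of at least 1 bp. Promoter windows were matched by gene number.

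The genes named follow a rule: the 8 highest and 8 lowest ratios among members with a mean of at least 50 counts, the 5 highest and 5 lowest by FPKM, members past 2-fold, with a peak, with several rows or at 0, and up to 4 of each related list. Not all that it allows are named. Members, lists, motifs, the classes by bacterial counterpart and the head-to-head comparison were chosen with results of these data known. Interval and overlap code was tested on simulated data. Alternatives covered pseudocounts, filters, scaling (edgeR 4.0.16, DESeq2 1.42.0 in R 4.3.3), FPKM in place of counts, score minima and overlap. Python 3.11.15, pandas 2.3.3 and scipy 1.17.1 were used. No column of an unmapped sample was present.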

Additional observations from a re-analysis of the deposited data

How the results depend on the processing

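Over pseudocounts of 0.1 and 5, filters, scalings, FPKM and summed rows, the median log2 ratio of the members stayed between 0.00 and 0.02. That of the small subunit stayed between 0.00 and 0.02 and that of the large subunit between -0.0015 and 0.01. All settings reuse the same pair of libraries. The filters, the summed rows and the DESeq2 factors, which were 1 in both libraries, leave the ratio of a named member unchanged. That the 449 values of named members stayed within their counting intervals was therefore largely set in advance and is no check of them. Among members whose interval left out 1, 0 changed direction. Without a filter 2 rows passed 2-fold, Mrps28 and a row of Mrpl30, both with a mean under 10 counts. Over all 76 rows the median FPKM was 23.4 in Ctrl and 22.4 in BPA, since the added rows are near 0. Requiring a score of at least 20 left a peak in 20% of members in Ctrl, 15.7% in BPA and 12.9% in both; a score of at least 100 left 7.14%, 8.57% and 7.14%, and with that minimum on both lists 100% of the Ctrl and 80% of the BPA peaks overlapped (55% and 73.3% at 20). The subunit placement with Mrps18a and Mrps30 in the large subunit was added after the data were seen. No paired analysis was possible because each group has 1 library. At about 70 counts, as for Mrpl51 or Mrps6, a counting interval reaches from 1.07 to 2.01 or from 0.516 to 0.980, so smaller differences at such genes were not detectable at this depth.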
